A study of Mus musculus with 4 samples.

Results

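The cadherins and catenins of adherens junctions were examined in mouse embryonic fibroblasts (MEF cells) that were wt or null for topoisomerase 2β (Top2β-null). The 10 genes were fixed by name and found in the deposited counts through their Ensembl identifiers: the cadherins Cdh1, Cdh2, Cdh3, Cdh5, Cdh11 and Cdh15 and the catenins Ctnna1, Ctnnb1, Ctnnd1 and Jup, out of 54842 genes in the table. RNA-seq after removal of ribosomal RNA covered 2 libraries of untreated wt MEF cells and 2 libraries of untreated Top2β-null MEF cells, all kept in the same serum-containing medium. The labels do not say whether the libraries of a genotype came from separate cultures, so p-values measure the spread between these libraries, which may be technical. The Top2β-null cells derive from null mice and were obtained from other laboratories, and the study cites different sources for the 2 kinds of cell, so that the loss of Top2β and the origin of the cells cannot be told apart. It is not stated whether either population is a single clone.

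Adherens junctions hold neighbouring cells together. Cadherins span the membrane and bind cadherins of the next cell outside it, while inside the cell β-catenin (Ctnnb1) or its close relative plakoglobin (Jup) binds the cadherin tail and, through α-catenin (Ctnna1), the actin skeleton. p120-catenin (Ctnnd1) binds nearer to the membrane and keeps cadherins at the surface. N-cadherin (Cdh2) and OB-cadherin (Cdh11) are typical of mesenchymal cells, E-cadherin (Cdh1) and P-cadherin (Cdh3) of epithelia, VE-cadherin (Cdh5) of endothelium and M-cadherin (Cdh15) of myoblasts. β-catenin also carries the Wnt signal to the nucleus.

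Start-site sequences, from RefSeq on GRCm38.p6, were found for 4 of the 10 genes and for Cdh6, a cadherin outside the 10 whose RNA was at 0 counts in both wt libraries. They are shown because they were the entries matched, and they include the most abundant of the 4 catenins. No entry was matched for Cdh1, Cdh2, Cdh3, Cdh5, Cdh11 and Ctnna1. Each line gives the 150 bases before the start site, 5′ to 3′ on the strand of the gene. The start is the one RefSeq gives, which for Ctnnb1, Ctnnd1 and Cdh15 lies inside the GENCODE gene whose position is given with its values, and for Jup just outside it. Capitals mark the GC box GGGCGG on either strand (read as CCGCCC on the other) and the E-box CANNTG, which is the same on both strands and is the kind of site bound by Snail, Zeb, Twist and muscle regulatory factors. Overlapping matches were counted, and where 2 GC boxes overlap their capitals run together.
Ctnnb1: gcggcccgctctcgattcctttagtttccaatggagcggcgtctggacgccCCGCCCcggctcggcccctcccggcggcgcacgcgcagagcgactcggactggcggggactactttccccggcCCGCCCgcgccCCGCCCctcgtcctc
Jup: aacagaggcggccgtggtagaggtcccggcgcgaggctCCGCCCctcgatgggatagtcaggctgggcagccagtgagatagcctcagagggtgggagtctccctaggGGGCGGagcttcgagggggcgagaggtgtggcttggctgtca
Ctnnd1: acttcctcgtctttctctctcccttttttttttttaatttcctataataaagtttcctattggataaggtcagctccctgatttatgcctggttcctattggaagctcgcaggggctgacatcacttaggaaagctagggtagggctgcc
Cdh15: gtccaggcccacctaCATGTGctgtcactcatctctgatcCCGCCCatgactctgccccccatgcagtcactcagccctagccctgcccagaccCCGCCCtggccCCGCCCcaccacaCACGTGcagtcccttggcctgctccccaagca
Cdh6: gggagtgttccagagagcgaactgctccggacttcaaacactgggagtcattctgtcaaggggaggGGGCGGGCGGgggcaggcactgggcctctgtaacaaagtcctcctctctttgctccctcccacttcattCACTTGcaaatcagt

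The window of Ctnnb1 lies at chr9:120933250-120933399 on the forward strand, that of Jup at chr11:100397791-100397940 on the reverse strand and that of Ctnnd1 at chr2:84650741-84650890 on the reverse strand. The window of Cdh15 lies at chr8:122848224-122848373 on the forward strand and that of Cdh6 at chr15:13173676-13173825 on the reverse strand. Ctnnb1, the most abundant of the 10 genes per length, had 23 CpG dinucleotides and 3 GC boxes in its window and no E-box. Jup had 10 CpG dinucleotides and 2 GC boxes, and Ctnnd1 had 2 CpG dinucleotides and neither motif. Cdh15, nearly silent in all libraries, had 4 CpG dinucleotides, 3 GC boxes and 2 E-boxes. Cdh6 had 4 CpG dinucleotides, 2 overlapping GC boxes and 1 E-box. Over all 32851 windows of the same length, the median was 4 CpG dinucleotides, 28.6% held a GC box and 47.7% an E-box. These matches describe the sequence only.

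Counts per library summed to between 133116830 and 149647278. Normalized counts are counts brought to a common library size with TMM factors from edgeR. Top2b measured 18259 and 18465 in wt against 3879 and 3789 in Top2β-null cells, in normalized counts. Part of its RNA thus remained, while the study showed by Western blot that these cells lack the Top2β protein. The fibroblast label was checked on 12 markers, of which 10 passed the filter on low counts. Vimentin (Vim) and the collagens Col1a1 and Col1a2 were abundant in every library, whereas Lum had at most 4 counts and Fap at most 2. Dcn rose from 226 and 223 normalized counts in wt to 7053 and 7239 in the null cells (log2 fold change 4.99), and Thy1 and Pdgfrb rose with log2 fold changes of 2.07 and 1.88, whereas Vim fell by 0.84 and Col1a1 by 1.38 on the log2 scale. In all, 4 of the 10 were called higher and 2 lower by the cut-offs given below. In bulk RNA, fewer cells of a type and less RNA per cell cannot be told apart.

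Which cadherins these cells express differed sharply between the genotypes, whereas the catenins differed little. Cdh11 was 53.0-fold higher and Cdh3 was 79.1-fold lower in Top2β-null MEF cells, and Cdh2, the most abundant cadherin of both genotypes, was at 82.0% of its wt level. Ctnnb1 was 1.29-fold and Jup 1.35-fold higher, while Ctnna1 was at 92.1% and Ctnnd1 at 78.3% of wt. Cdh1, Cdh5 and Cdh15 stayed below 35 normalized counts in all 4 libraries.

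Of the 10 genes, 9 reached 10 counts in 2 or more libraries and were tested. Cdh15 was not, and Cdh1 passed this filter through the wt libraries only. By the cut-offs of the study's methods (a mean of over 100 normalized counts, a log2 fold change beyond 1 in either direction, and an adjusted p under 0.05), 1 of the 9 was called higher, Cdh11, against 5.52% of all genes tested, and 1 was called lower, Cdh3, against 5.25% (quasi-likelihood test of edgeR, p-values adjusted by Benjamini and Hochberg). By the adjusted p alone, 3 rose and 5 fell, against 32.8% and 33.7% of all genes tested. The 5 include Cdh1, which had to be lower to pass the filter as it did and is not past the threshold with DESeq2, so nothing is read from this count. Normalized counts of the 2 genotypes did not overlap for 8 of the 9, against 81.9% of all genes tested. The median log2 fold change of the 9 was -0.16, beside -0.0058 for all genes tested. What sets Cdh3 and Cdh11 apart is size: of 16656 genes with a mean normalized count above 100, 204 (1.22%) changed as much as Cdh3 or more, in either direction, and 258 (1.55%) as much as Cdh11 or more.

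**Figure D1:**
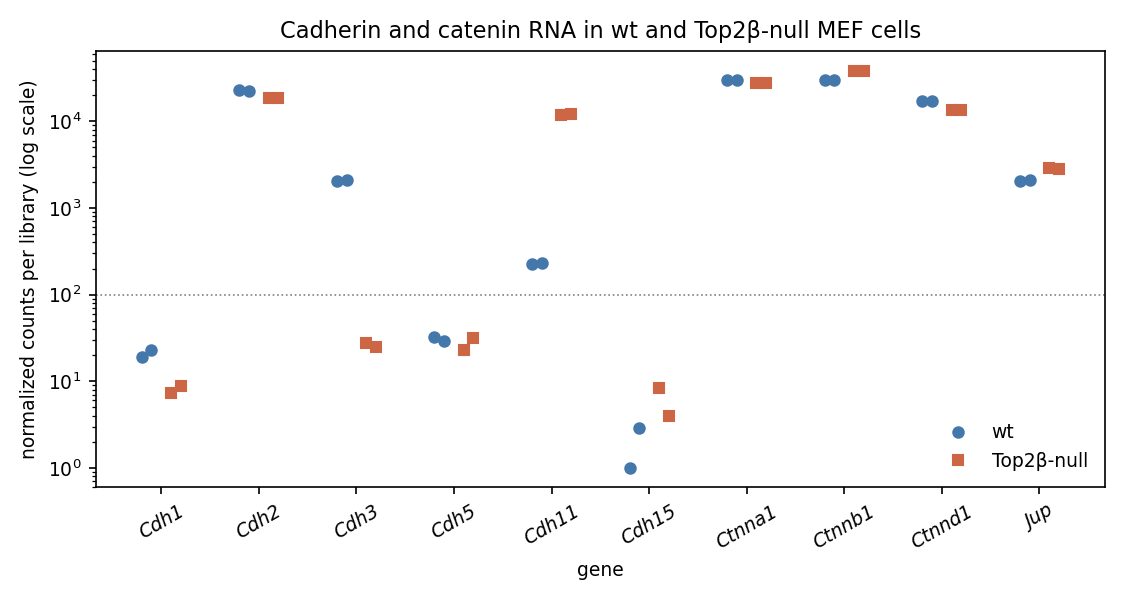
Normalized counts of the 10 genes in each library, on a log scale (circles, 2 wt libraries; squares, 2 Top2β-null libraries; dotted line, the mean-count cut-off of 100). Cdh11 and Cdh3 lie far apart between the genotypes, the 4 catenins and Cdh2 lie close together, and Cdh1, Cdh5 and Cdh15 lie below the dotted line in every library.

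Cdh2 (N-cadherin) measured 22693 and 22647 in wt against 18513 and 18648 in Top2β-null cells, in normalized counts. All values were high, and both Top2β-null libraries lay below both wt libraries. On the log2 scale it changed by -0.29 (± 0.0240, standard error; adjusted p = 2.39e-08, quasi-likelihood test of edgeR). Cdh2 (ENSMUSG00000024304.14) lies on chromosome 18 of GRCm38 from 16588877 to 16809246, on the reverse strand. Of the genes with a mean above 100, 57.2% changed by at least as much.

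Cdh11 (OB-cadherin), a mesenchymal cadherin of bone, synovium and fibroblasts, measured 224 and 231 in wt against 11826 and 12283 in Top2β-null cells, in normalized counts. The gene was thus low but measurable in wt and among the abundant cadherins in Top2β-null MEF cells, and the groups did not overlap. On the log2 scale it changed by 5.73 (± 0.0447, standard error; adjusted p = 6.14e-21, same edgeR test). The gene (ENSMUSG00000031673.6) lies on chromosome 8 from 102632095 to 102785642, on the reverse strand.

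Cdh3 (P-cadherin), a cadherin of basal epithelia that some mesenchymal cells also make, went the other way. It measured 2071 and 2097 in wt against 28.0 and 24.8 in Top2β-null cells, in normalized counts. On the log2 scale it changed by -6.30 (± 0.0951, standard error; adjusted p = 9.32e-18, same edgeR test), and 1.26% of the wt mean remained. The raw counts behind the Top2β-null values were 27 and 25, so the gene was still detected there. Cdh3 (ENSMUSG00000061048.8) lies on chromosome 8 from 106510891 to 106557297, on the forward strand.

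Cdh1 (E-cadherin), the cadherin of epithelia, measured 19.2 and 23.2 in wt against 7.25 and 8.91 in Top2β-null cells, in normalized counts. Both Top2β-null libraries lay below both wt libraries, at a level that counting noise limits. The ratio of Top2β-null to wt was 0.382, with an exact 95% binomial interval from 0.201 to 0.692 that covers counting error only. The log2 fold change of -1.38 had an adjusted p of 0.0105 with edgeR and of 0.0956 with DESeq2, and 0.0540 with edgeR without Top2β-null replicate 1, over a range from 0.0112 to 0.0956 for the alternatives that tested it. Cdh1 did not pass the filter, and so was not tested, without either wt library or with at least 100 counts in every library. Its mean lies under the cut-off of 100, so it was not called. Cdh1 (ENSMUSG00000000303.12) lies on chromosome 8 from 106603351 to 106670246, 46.1 kb beyond Cdh3 and on the same strand.

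Cdh5 (VE-cadherin) measured 32.3 and 29.0 in wt against 22.8 and 31.7 in Top2β-null cells, in normalized counts. The groups overlapped. The ratio of Top2β-null to wt was 0.889, with an exact 95% binomial interval from 0.609 to 1.31, so a difference in either direction within these bounds was not detectable at this depth (log2 fold change -0.16, standard error 0.319, adjusted p = 0.676 with edgeR). Cdh5 (ENSMUSG00000031871.9) lies on chromosome 8 from 104101625 to 104144511, 1316 kb beyond Cdh11, which was called in the same libraries.

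Cdh15 (M-cadherin) had raw counts of 1 and 3 in wt and of 8 and 4 in Top2β-null MEF cells. With so few reads, the ratio of 3.13 had an exact 95% binomial interval from 0.933 to 13.1 (counting error only), which includes 1. Cdh15 (ENSMUSG00000031962.6) lies on chromosome 8 from 122847966 to 122867397, on the forward strand.

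Markers of the cell types in which Cdh1, Cdh5 and Cdh15 are typical differed widely in level, from 0 counts up to 3649 normalized counts for Flt1 in a Top2β-null library. Of 15 epithelial markers, 7 were tested and 1, Cldn7, was called lower, with 220 and 235 normalized counts in wt and 41.4 and 66.4 in Top2β-null MEF cells. Krt19 made up most of the list's sum, with 683 and 708 in wt and 563 and 564 in Top2β-null MEF cells, and Krt8 had 45.4 in both wt libraries and 6.21 and 3.96 in the others. Grhl2 had 24.2 and 25.1 in wt, against 40.4 and 40.6, and Rab25 had 24.2 and 26.1, against 38.3 and 32.7. By the adjusted p alone, 1 of the 7 epithelial markers tested rose and 4 fell, beside 32.8% and 33.7% of all genes tested. Krt8 and Cldn4, among the 4, passed the filter on low counts through the wt libraries only and had to be lower. Epcam had at most 3 counts in any library, and the summed level of the list was 1036 to 1081 normalized counts in wt and 720 to 738 in Top2β-null MEF cells. Of 12 endothelial markers, 8 were tested and 2 were called higher, Flt1 and Kdr, and the sum was 973 to 1017 in wt and 4388 to 4546 in Top2β-null MEF cells, most of it Flt1 (3484 and 3649). Of the 8, 5 rose and 1, Tek, fell by the adjusted p alone, beside the same shares of all genes tested. Tek passed the filter through the wt libraries only. Egfl7 rose by 0.39, Vwf by 0.86 and Esam by 0.90 on the log2 scale. Pecam1 had 17.2 and 29.9 normalized counts in wt and 16.6 and 16.8 in Top2β-null MEF cells, and Tek had 43.4 and 34.8, against 9.32 and 3.96. Tie1 had at most 2 counts and Emcn and Robo4 at most 1. Of 10 myoblast markers, 7 had at most 3 counts in every library, and Myf5, Myog and Pax7 had 0 counts in all libraries. Des, a muscle filament gene, fell from 88.8 and 139 normalized counts to 2.07 and 0.99, and Pax3 had 0 counts in wt and 248 and 273 normalized counts in Top2β-null MEF cells. Leukocyte markers summed to between 209 and 211 normalized counts in wt and between 445 and 459 in Top2β-null MEF cells, of which Cd53 made up 293 and 264, with Fcer1g at 30.3 and 33.8 in wt and 53.9 and 53.5 in Top2β-null MEF cells. Of the 5 leukocyte markers tested, 3 rose and 1 fell by the adjusted p alone, beside the same shares of all genes tested. Cd53 and Itgam (1 count in each wt library, against 27 and 29) passed the filter through the Top2β-null libraries only. Fcer1g, which also rose, had an adjusted p of 0.0211 with edgeR and of 0.112 with DESeq2. Lcp1 fell from 71.7 and 87.9 to 16.6 and 19.8 normalized counts, and Coro1a had 97.9 and 77.3 in wt, against 59.0 and 70.3. Ptprc was at 7 counts or fewer. The part of such cells in the values of the cadherins was not tested.

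The catenins showed changes of a much smaller size with little spread between replicates. Ctnnb1 (β-catenin) measured 29657 and 29969 in wt against 38467 and 38382 in Top2β-null cells, in normalized counts. On the log2 scale it changed by 0.37 (± 0.0247, standard error; adjusted p = 1.65e-09, quasi-likelihood test of edgeR). Jup (plakoglobin), which can take the place of β-catenin on the cadherin tail and is also a part of desmosomes, had 2064 and 2128 normalized counts in wt and 2896 and 2778 in Top2β-null MEF cells. On the log2 scale it changed by 0.44 (± 0.0431, standard error; adjusted p = 1.85e-07, same test). Both genes were higher in each Top2β-null library than in each wt library.

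Ctnna1 (αE-catenin), which carries the link to actin, had 29994 and 29850 normalized counts in wt and 27800 and 27329 in Top2β-null MEF cells. The change of -0.12 on the log2 scale (± 0.0247, standard error; adjusted p = 0.000538, same edgeR test) was the smallest of the 9 genes tested. It became -0.049 with an adjusted p of 0.108 when libraries were scaled to the total count, so that the adjusted p is past 0.05 or not depending on the scaling. Ctnnd1 (p120-catenin) had 17099 and 17165 normalized counts in wt and 13395 and 13434 in Top2β-null MEF cells, which is -0.35 on the log2 scale (± 0.0241, standard error; adjusted p = 1.84e-09, same edgeR test). For both genes, each Top2β-null library lay below each wt library.

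Ctnnb1 (ENSMUSG00000006932.17) lies on chromosome 9 from 120929216 to 120960507 (forward strand), Ctnna1 (ENSMUSG00000037815.6) on chromosome 18 from 35118859 to 35254779 (forward strand), Ctnnd1 (ENSMUSG00000034101.14) on chromosome 2 from 84600071 to 84650765 (reverse strand) and Jup (ENSMUSG00000001552.14) on chromosome 11 from 100368958 to 100397763 (reverse strand). Of the exonic bases of Ctnnd1, 61.2% are shared with Gm28635, annotated on the same strand, so how the counting divided these reads is uncertain. Gm28635 had 13630 and 13579 normalized counts in wt, against 10555 and 10502 in Top2β-null MEF cells (log2 fold change -0.37). Of the exonic bases of Ctnnb1, 14.6% overlap those of Ulk4 on the opposite strand. Ulk4 had 5420 and 5411 normalized counts in wt and 7019 and 7289 in the null cells (log2 fold change 0.40). The library kit keeps the strand, but the strand setting of the counting is not given in the sources used here, so the reads of the overlap may belong to either gene.

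**Figure D2:**
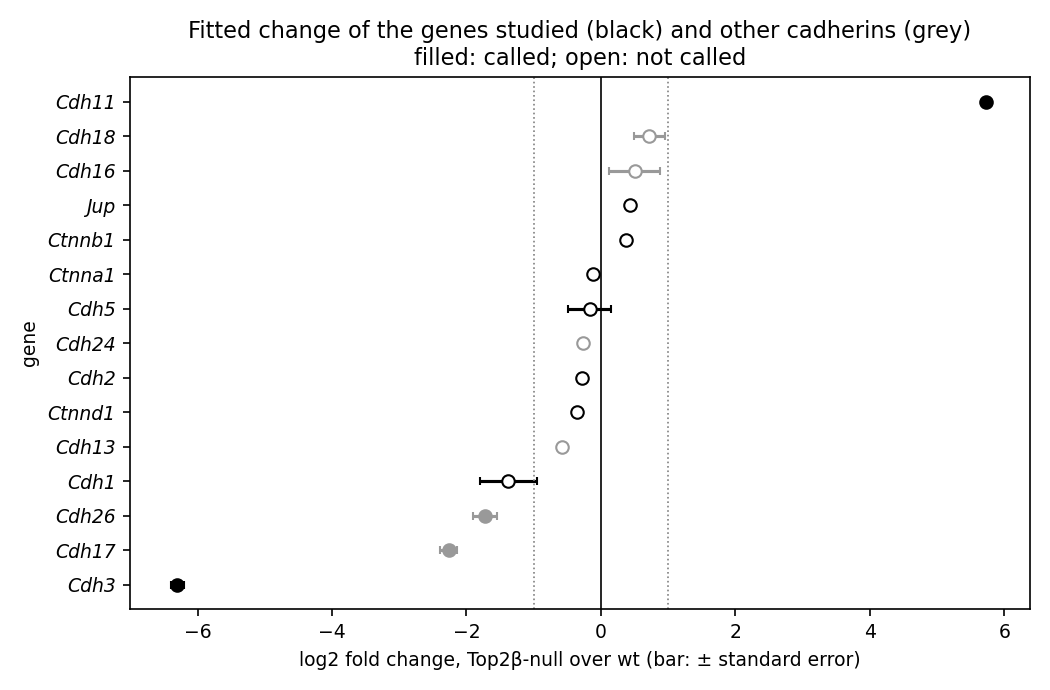
Fitted log2 fold changes (Top2β-null over wt, bars ± standard error) of the genes studied (black) and of other cadherins tested (grey), leaving out Cdh6 and Cdh19, which had at most 1 count in each wt library. Filled circles were called, and dotted lines mark the cut-off of 1 on either side of 0. Cdh11 at 5.73 and Cdh3 at -6.30 lie beyond all others, and the 4 catenins lie between the dotted lines.

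Levels of different genes can be compared only per length. As normalized counts per kb of exon, the order in wt MEF cells was Ctnnb1 (5742), Ctnna1 (4657), Cdh2 (2811), Ctnnd1 (2341), Cdh3 (475), Jup (326), Cdh11 (25.5), Cdh5 (7.29), Cdh1 (4.63) and Cdh15 (0.601). In Top2β-null MEF cells Cdh11 (1354 ± 36.3, SD, n = 2) stood between Ctnnd1 (1833) and Jup (441), and Cdh3 (6.01 ± 0.517, SD, n = 2) lay beside Cdh5 (5.42 and 7.54 in the 2 libraries). These last 2 did not differ beyond their spread, nor did Cdh15 (1.88 ± 0.940, SD, n = 2) and Cdh1 (1.77 ± 0.257, SD, n = 2). The first 4 places were held by Ctnnb1, Ctnna1, Cdh2 and Ctnnd1 in both genotypes. With all counts of Gm28635 added to Ctnnd1, an alternative chosen after seeing the data, Ctnnd1 had 4199 normalized counts per kb in wt, against 3271 in Top2β-null MEF cells, and stood above Cdh2 in both.

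The composition of cadherin RNA needs no scaling between libraries. It was taken as the share of each gene in the summed counts per kb of 22 cadherins, the 6 above and 16 others of the family. In the wt libraries, Cdh2 made up 67.3% and 66.8%, Cdh3 11.3% and 11.4%, and Cdh11 0.602% and 0.617%. In the Top2β-null libraries, Cdh2 made up 52.6% and 52.1%, Cdh11 30.4% and 31.1%, and Cdh3 0.146% and 0.127%. Per kb, Cdh3 was thus the second cadherin of wt MEF cells and Cdh11 the second of Top2β-null MEF cells, behind Cdh2 in each. The place of Cdh3 depends on the length correction. In raw counts Cdh13, one of the 16 others, had 4173 and 4342 in wt, above the 2052 and 2171 of Cdh3.

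The share of Cdh11 differed by 30.1 percentage points with a pooled SD of 0.327 within genotypes, that of Cdh2 by -14.7 points (SD 0.342) and that of Cdh3 by -11.2 points (SD 0.0427). With raw counts in place of counts per kb, the difference for Cdh3 was -6.64 points. Each has p = 0.33 by a two-sided exact permutation test, the smallest p that 2 libraries against 2 allow. Within a library, the log2 ratio of Cdh11 to Cdh2 per kb was -6.80 and -6.76 in wt and -0.79 and -0.74 in Top2β-null MEF cells. The log2 ratio of Cdh3 to Cdh2 was -2.57 and -2.55 in wt and -8.49 and -8.68 in Top2β-null MEF cells.

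**Figure D3:**
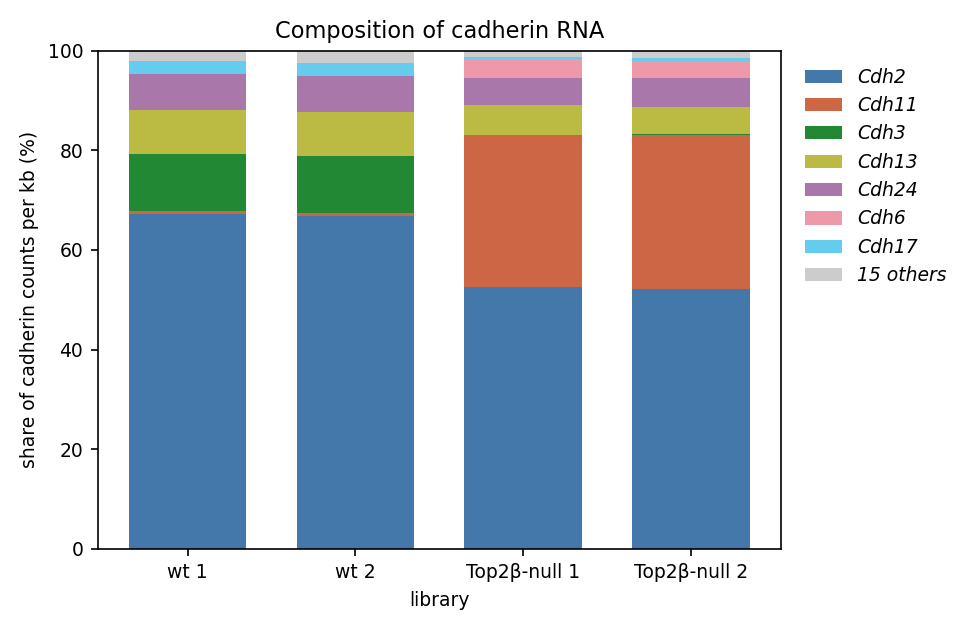
Share of each cadherin in the summed counts per kb of 22 cadherins, in percent, for each of the 4 libraries; grey stands for 15 cadherins not drawn singly. Cdh2 fills 66.8% to 67.3% of the wt bars and 52.1% to 52.6% of the Top2β-null bars, where Cdh11 takes about the place that Cdh3 and a part of Cdh2 hold in wt.

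The sum over the 22 cadherins changed far less than its parts. It was 4180 and 4201 normalized counts per kb in wt against 4366 and 4439 in Top2β-null MEF cells. The 4 catenins summed to 13037 and 13094 per kb in wt and to 14016 and 13913 in Top2β-null MEF cells. The log2 ratio of catenins to cadherins was 1.64 in both wt libraries, against 1.68 and 1.65 in Top2β-null MEF cells. The difference of 0.025 was close to the pooled replicate SD of 0.0173 (exact permutation test, two-sided, p = 0.33), and it turned to -0.16 with raw counts in place of counts per kb and to -0.026 with the counts of Gm28635 added to Ctnnd1.

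Within the catenins, the share of β-catenin was larger in Top2β-null MEF cells. Ctnnb1 made up 43.8% and 44.1% of the catenin counts per kb in wt, against 52.9% and 53.1% in Top2β-null MEF cells. The share of Ctnna1 was 35.8% and 35.5% in wt and 30.9% and 30.6% in Top2β-null MEF cells, and that of Ctnnd1 was 17.9% in both wt libraries, against 13.1% and 13.2% in Top2β-null MEF cells. Jup made up 2.46% and 2.53% in wt and 3.21% and 3.10% in Top2β-null MEF cells. With the counts of Gm28635 added to Ctnnd1, the share of Ctnnd1 was 28.1% in wt, against 21.2% in Top2β-null MEF cells, and that of Ctnnb1 was 38.5%, against 48.0%. The log2 ratio of Ctnnb1 to Ctnna1 was 0.29 and 0.31 in wt and 0.78 and 0.80 in Top2β-null MEF cells, and thus higher by 0.48, with a pooled SD of 0.0154 within genotypes. The log2 ratio of Ctnnb1 to Ctnnd1 differed by 0.72 (pooled replicate SD 0.00602), while that of Jup to Ctnnb1 differed by 0.070 (SD 0.0318).

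**Figure D4:**
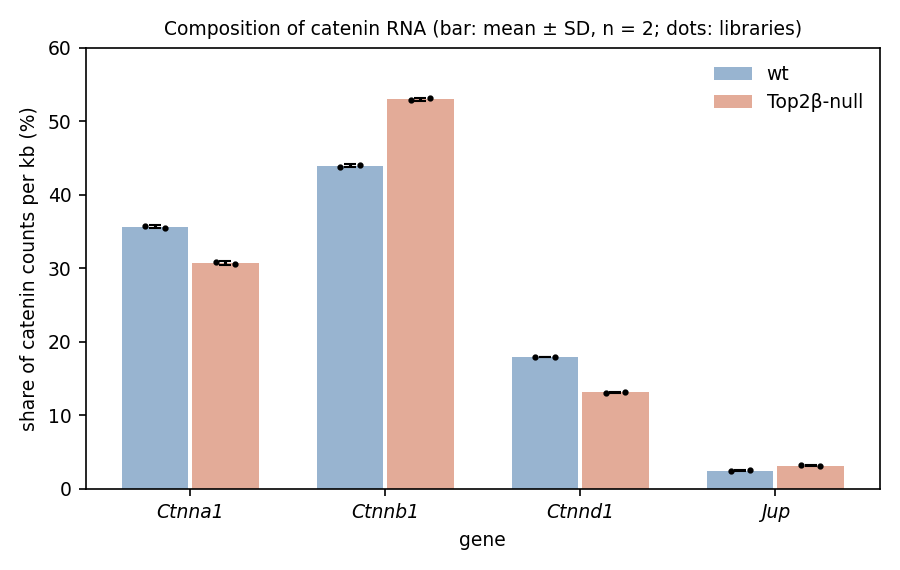
Share of each of 4 catenins in their summed counts per kb, in percent (bars, mean ± SD of 2 libraries; dots, libraries; blue, wt; orange, Top2β-null). Ctnnb1 is at 43.9% in wt against 53.0% in Top2β-null MEF cells, while Ctnna1 and Ctnnd1 have smaller shares in Top2β-null MEF cells.

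Of the 16 other cadherins, 8 were tested, 1 was called higher and 2 lower. Cdh6 (K-cadherin) had 0 counts in both wt libraries and 1458 and 1424 normalized counts in the Top2β-null libraries, which is at least 486-fold higher when wt is set to a floor of 3 counts per library. It made up 3.70% and 3.56% of cadherin counts per kb in Top2β-null MEF cells. Cdh17 (LI-cadherin) fell from 486 and 497 normalized counts to 84.9 and 119 (log2 fold change -2.27), and Cdh26 fell with a log2 fold change of -1.73. Cdh13 (T-cadherin), anchored by a lipid and without a catenin-binding tail, was the highest of the 16 in wt MEF cells, with 374 normalized counts per kb, and fell with a log2 fold change of -0.58. Cdh7, Cdh8, Cdh9 and Cdh20 had 0 counts in every library. The median log2 fold change of the 8 was 0.11, also with Cdh6 at its bound.

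In all, 8 lists of other junction genes were examined, the other cadherins included. They hold 88 genes, of which 71 were tested, 7 called higher and 13 called lower, beside 5.52% and 5.25% of all genes tested. Leaving out Cdh6, Cdh19 and Klf8, which passed the filter on low counts through 1 genotype only, 68 were tested, 6 called higher and 12 called lower. Over all 71 tested, the median log2 fold change was -0.12. By the adjusted p alone, 27 of the 71 rose and 36 fell, beside the background shares of 32.8% and 33.7% given above. These counts include Cdh6, Cdh19 and Klf8, whose direction the filter fixed.

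Among other genes of the catenin and p120 families, 1 of 8 tested was called higher and 3 lower, with a median log2 fold change of -0.58. Ctnnd2 (δ-catenin), a relative of p120 best known from neurons, fell from 1083 and 1117 normalized counts to 89.1 and 59.4 (log2 fold change -3.89). The plakophilins Pkp1 and Pkp2, which belong to desmosomes, fell with log2 fold changes of -3.17 and -2.99, whereas Pkp4, the highest of the list per kb in wt, fell by 0.18 on the log2 scale. Ctnnal1 (α-catulin), an α-catenin relative, was the gene called higher, with a log2 fold change of 1.29.

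Nectins are a second kind of adhesion receptor at these junctions, tied to actin by afadin (Afdn). Of 6 genes tested, 1 was called higher, Nectin2, which rose from 1530 and 1410 normalized counts to 7489 and 7692 (log2 fold change 2.37). Afdn fell by 0.14 on the log2 scale. Pvr fell from 11035 and 11220 normalized counts to 5787 and 5969 (log2 fold change -0.92), short of the cut-off of 1. By the adjusted p alone, 2 of the 6 rose and 3 fell, beside 32.8% and 33.7% of all genes tested. The median of the list was -0.0087.

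Of 12 proteins that link junctions to actin, 2 were called higher and 1 lower, with a median log2 fold change of -0.19. Enah, which promotes the growth of actin filaments, rose from 3115 and 3000 normalized counts to 14779 and 14320 (log2 fold change 2.25). Plekha7, a binding partner of p120, rose at a low level with a log2 fold change of 1.86, and Pdlim7 fell with one of -1.14. Vinculin (Vcl), which binds stretched α-catenin, fell by 0.89 and α-actinin (Actn1) by 0.93 on the log2 scale, while zyxin (Zyx) rose by 0.79 and Vasp by 0.61. By the adjusted p alone, 5 of the 12 rose and 7 fell, beside 32.8% and 33.7% of all genes tested.

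Among 15 genes that process cadherins or control their phosphorylation, 4 were called lower, with a median log2 fold change of -0.15. Src, a tyrosine kinase that acts on junctions, fell from 18809 and 18855 normalized counts to 7921 and 7640 (log2 fold change -1.28). The receptor phosphatases Ptprm and Ptprj fell with log2 fold changes of -1.12 and -1.09, and Psen2, a part of γ-secretase, with one of -1.19. Adam10, a protease that sheds cadherins, rose by 0.55 on the log2 scale, and the related Adam9, the highest of the list per kb in wt, by 0.12.

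The complex that marks free β-catenin for destruction had 10 genes tested, with 1 called lower and a median log2 fold change of -0.13. That gene was Axin2, itself a common target of Wnt and β-catenin signalling, with 158 and 169 normalized counts in wt and 45.6 and 46.6 in the null cells (log2 fold change -1.83). Csnk1a1, a kinase of the complex and the highest of the list per kb in wt, had a log2 fold change of 0.075 with an adjusted p of 0.0188 (edgeR), which became 0.102 without wt replicate 1 and 0.202 without wt replicate 2.

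The 6 desmosomal cadherins listed (Dsg and Dsc genes) had at most 3 counts in every library, and desmoplakin (Dsp) at most 7. Of 10 genes 3 were tested, with a median log2 fold change of -0.53, and Perp, a membrane protein of desmosomes, was called lower, from 2396 and 2324 normalized counts in wt to 148 and 134 in the null cells (log2 fold change -4.07).

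Of 9 transcription factors known as repressors of Cdh1, 2 were called higher and 1 lower, with a median log2 fold change of 0.23. By the adjusted p alone, 7 rose and 1 fell, beside 32.8% and 33.7% of all genes tested. Twist2 rose with a log2 fold change of 1.37 and Tcf4, an E-box binding partner of such factors, with one of 1.08, while Snai1 (Snail) rose from 1709 and 1889 normalized counts to 3470 and 3720, just under the cut-off. Klf8 fell from 225 and 218 normalized counts to 7.25 and 5.94 (log2 fold change -5.05), and passed the filter on low counts through the wt libraries only, so that its direction was fixed. Tcf3 (E2A), the highest of the list per kb in wt, rose by 0.14 on the log2 scale, and Zeb1 had a log2 fold change of 0.054 with an adjusted p of 0.132 (edgeR).

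**Figure D5:**
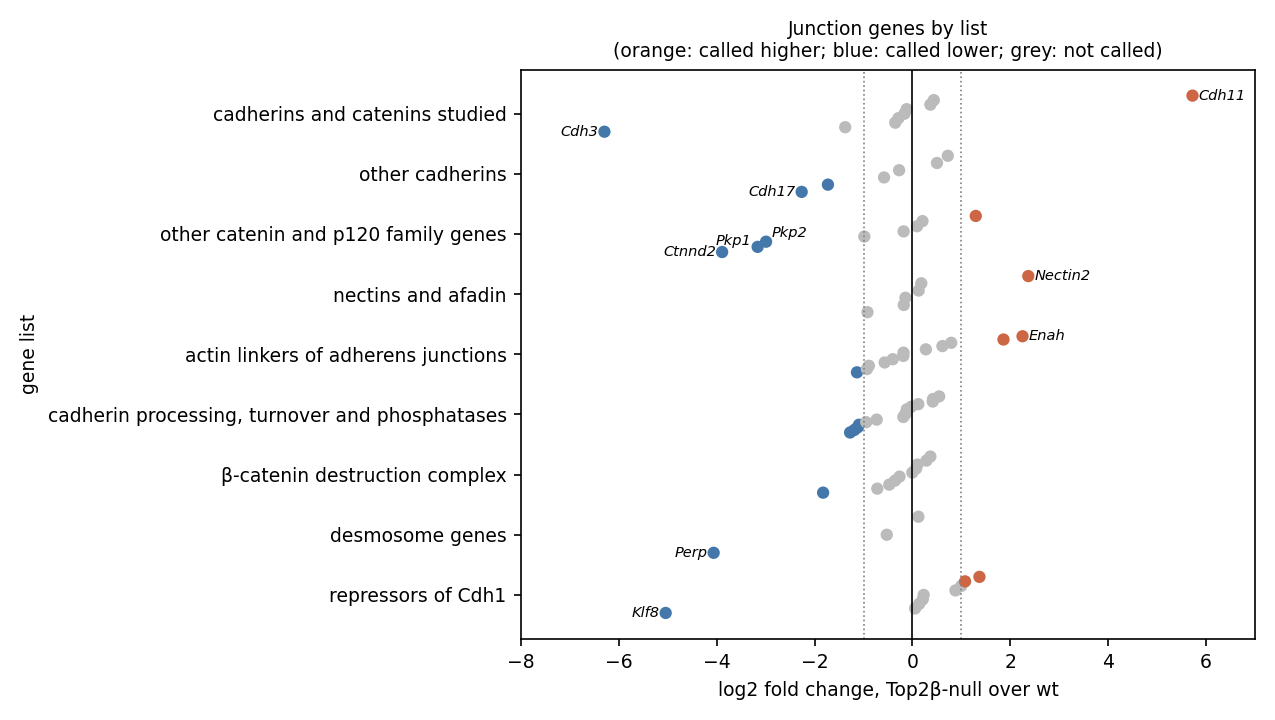
Log2 fold changes (Top2β-null over wt) of every tested gene with over 3 counts in a library of each genotype, by list. Orange points were called higher and blue points lower, and genes called beyond 2.2 on either side are named. Of the points drawn, Cdh11 and Cdh3 are the farthest on the right and on the left. The rule leaves out Cdh19 and Cdh6, whose rise of at least 486-fold was larger than that of Cdh11.

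Position was compared as well, since 5 of the 6 cadherins lie on chromosome 8. The nearest protein-coding gene on each side of the 10 genes was taken, which gave 17 genes outside the set, of which 13 were tested. Of these, 1 was called higher and 0 lower, beside 5.52% and 5.25% of all genes tested. That gene was Hap1 (huntingtin-associated protein), 12.8 kb from Jup, which rose from 9.08 and 14.5 normalized counts to 267 and 300 (log2 fold change 4.57). Gm10073, between Cdh3 and Cdh1, had a log2 fold change of -0.81, and Tango6, beyond Cdh1, one of -0.62, against -6.30 for Cdh3. 6030452D12Rik, 3.55 kb away on the other side of Cdh3, had too few counts to be tested. It had 10.1 and 3.86 normalized counts in wt and 0 in both Top2β-null libraries. Bean1, beside Cdh5, was also low, with 15.1 and 23.2 normalized counts in wt and 3.11 and 2.97 in Top2β-null MEF cells. Cdh11 has Cdh8 as its neighbour on the side of lower coordinates, at a distance of 3216 kb and with 0 counts in every library, and Cdh5 on the other side. Drosha, 93.4 kb from Cdh6, had a log2 fold change of -0.34.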

How the data were processed

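The authors deposited unnormalized counts for each gene and repeat family in each library. Per the study's methods, they trimmed read pairs (Trim Galore!), mapped them on mm10 (STAR, reads with several alignments kept) and counted with TEtranscripts. Libraries were assigned from the labels. Of 54842 gene identifiers, 54409 matched GENCODE M21 (GRCm38), the source of symbols, positions and exon lengths. The counts alone were analysed, in R 4.3.3 with edgeR 4.0.16 (TMM factors over genes and repeats, quasi-likelihood test with genotype as the only term, Benjamini-Hochberg adjustment over the 26566 features that reached 10 counts in 2 or more libraries) and DESeq2 1.42.0 as an alternative. Standard errors were derived from the fold change and its F statistic. On simulated data with 200 of 26566 features changed, edgeR called all 131 changed features whose mean was above 100 and no unchanged feature. Other alternatives were TMM factors from genes, total-count scaling, other filters, a replicate block, the adjusted p alone and leaving out each library. The genes and lists were chosen with earlier results of these data known. Named genes outside the 10 follow a rule per list. They are up to 3 called genes with the largest change whose groups do not overlap, and the gene highest per kb in wt. Added after their values were seen were Ctnnal1, Vcl, Zyx, Vasp, Pvr, Vwf, Esam, Itgam, Cldn4, Col1a1, Col1a2, Krt8, Grhl2, Rab25, Lcp1 and Coro1a. So were Tek, Pecam1, Ptprj, Adam10, Snai1, Zeb1, the genes named for absent or low counts and the overlapping and neighbouring genes.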

Additional observations from a re-analysis of the deposited data

How the results depend on the processing

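For the 9 genes tested, 49 of 51 alternative values from all 4 libraries kept their direction and side of an adjusted p of 0.05, and 2 were weaker: Cdh1 with DESeq2 and Ctnna1 with total-count scaling, as given above. With each library left out, 32 of 34 kept both, Cdh1 was weaker without Top2β-null replicate 1, and Cdh5 turned from -0.16 to 0.089 without the same library (range -0.41 to 0.089). Cdh11 stayed between 5.69 and 5.80 and Cdh3 between -6.35 and -6.19 in every fit that tested them. With at least 100 counts in every library, 0 of 6 genes tested were called lower in place of 1 (edgeR), because Cdh3 is removed (at unadjusted p, 3 were lower; DESeq2 with the usual filter called 1), and 8 other junction genes were called lower in place of 13. With the adjusted p as the only cut-off, 3 of the genes were called higher and 5 lower, and 27 and 36 of the other junction genes. Raw counts in place of counts per kb moved the difference in share to -21.6 points for Cdh2, 32.6 for Cdh11 and -6.64 for Cdh3, and the log2 ratio of catenins to cadherins from 0.025 to -0.16. Adding all counts of Gm28635 to Ctnnd1, an alternative chosen after seeing the data, turned that ratio to -0.026. Both genotypes have replicates 1 and 2, but same-numbered libraries shared only a number (correlation of deviations 0.0207 across 17952 features). With the number as a replicate block, 1 gene was called higher and 1 lower, as without it, with log2 fold changes of 5.73 for Cdh11 and -6.30 for Cdh3. Depth limits Cdh1, Cdh5 and Cdh15, and intervals cover counting error only.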
